A study of Mus musculus with 12 samples.

Results

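The 31 genes described here encode the enzymes that make cholesterol and fatty acids, the SREBP system that controls their transcription and the exporters that remove cholesterol from the cell. They were taken by gene symbol from a fixed list, and all 31 were found among the 35855 genes with annotated transcripts. All 31 also passed the filter on low counts in every comparison. By role, 7 members catalyse the mevalonate steps, 11 the steps from squalene to cholesterol and 7 the synthesis of fatty acids, while 4 are regulators and 2 are exporters.

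RNA-seq was performed on CD8 T cells sorted from spleen, in 4 groups of 3 libraries. The donors were C57BL/6-background mice, either wild-type (WT) or with TCF-1, the transcription factor encoded by Tcf7, deleted by a CD4cre transgene (TCF-1 cKO, written TCF-7 cKO in the sample labels). The Cre is active from the double-positive thymocyte stage, so CD4 and CD8 lineages both lose the gene, and no library is labelled as Cre only. Pre-transplant cells came straight from 3 mice of each genotype, and day 7 cells were donor H2Kb+ cells recovered from lethally irradiated BALB/c recipients. In the authors' transplant protocol, recipients were also given T cell-depleted WT bone marrow of the same MHC haplotype as the donor T cells. The labels for the day 7 libraries do not say how many recipients each library holds, so p-values there measure the spread between libraries, which may be technical.

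Acetyl-CoA is the common starting material of both pathways. In cholesterol synthesis it passes through mevalonate, isopentenyl and farnesyl pyrophosphate, squalene and lanosterol, and in fatty acid synthesis it is carboxylated by Acaca and extended to palmitate by Fasn. The transcription factors SREBP-1 (Srebf1) and SREBP-2 (Srebf2) sit in the endoplasmic reticulum bound to Scap, are held there by Insig1 when sterols are plentiful, and are cut and enter the nucleus when sterols run short. LXR receptors act in the opposite situation and raise the exporters Abca1 and Abcg1, and T cells that divide after activation are known to need newly made sterols and lipids for membrane.

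SREBP proteins bind sterol regulatory elements in promoters. The element's core, searched on both strands as TCACNCCAC, occurred in the 300-base RefSeq promoter window (250 bases before to 50 after a gene's start, GRCm38.p6) of 1 of the 25 members that had a window, Hmgcs1, and in 1.24% of all 32851 windows. It lay 137 bases before the gene start, at chr13:119690194-119690242 on the plus strand, where the core is in capitals in a stretch of 49 bases.
Hmgcs1 sterol regulatory element: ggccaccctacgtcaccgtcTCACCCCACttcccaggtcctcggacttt
The E-box CACGTG was present for 6 members (7.15% of all windows), the CCAAT box for 20 members (37.4%) and the GC box GGGCGG for 21 members (35.7%). No window was held for Sqle, Scd1, Scd2, Fdps, Abcg1 and Fdft1.

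The members also differed in base composition, against which the day 7 values are set below. Mvd and Idi1 catalyse consecutive steps of the mevalonate branch, and their coding sequences hold 59.6% and 42.5% G and C. The 120 bases from the middle of each coding sequence, positions 544 to 663 of Mvd and 367 to 486 of Idi1 counted from the start codon, are printed with G and C in capitals to show how far neighbouring enzymes differ. Mvd lies on chromosome 8 from 122433601 to 122443422 on the minus strand and Idi1 on chromosome 13 from 8885501 to 8892451 on the plus strand (GRCm38).
Mvd, 62.5% G and C: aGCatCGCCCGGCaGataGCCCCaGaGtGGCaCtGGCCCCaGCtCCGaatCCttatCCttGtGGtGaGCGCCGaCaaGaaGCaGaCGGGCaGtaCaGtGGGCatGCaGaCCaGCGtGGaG
Idi1, 44.2% G and C: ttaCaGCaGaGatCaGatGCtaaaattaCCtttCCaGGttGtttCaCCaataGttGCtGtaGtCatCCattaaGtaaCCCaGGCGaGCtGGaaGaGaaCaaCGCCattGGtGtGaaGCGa

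Estimated counts over all transcripts totalled 4520270 to 9577076 for TCF-1 cKO before transplant and 18184814 to 32657005 in the other 9 libraries. A level of 3 counts, the smallest taken as shown, corresponds to 0.0919 to 0.664 CPM, the count scaled for library size alone. The normalized CPM given below are scaled by normalization factors as well. The targeted gene Tcf7 was at 131, 84.3 and 189 normalized CPM in pre-transplant WT replicates 1 to 3 and at 30.8, 40.8 and 67.8 in TCF-1 cKO. At day 7 it was at 27.3, 24.0 and 9.59 normalized CPM in WT and at 11.5, 11.7 and 11.7 in TCF-1 cKO, so that Tcf7 was lower in the library labelled WT replicate 3 than in any TCF-1 cKO library. In edgeR's test between genotypes its log2 fold change was -1.35 before transplant (adjusted p = 0.223) and -0.91 at day 7 (adjusted p = 0.308). With each library's trend on GC content and length removed these were -1.71 and 0.31 (adjusted p = 0.131 and 0.691). None of these passed an FDR of 0.1. A sample label of day 7 TCF-1 cKO replicate 2 names CD4 T cells, and Cd4 was at 1.75 normalized CPM there.

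The pre-transplant libraries, labelled CD8 T cells, held B-cell transcripts far above those of CD8 T cells. The summed level of 6 B-cell markers was 25904 to 28548 normalized CPM in pre-transplant WT and 10030 to 29359 in pre-transplant TCF-1 cKO, against 303 to 1139 at day 7. The 5 CD8 T-cell markers summed to 907 to 1107 normalized CPM in pre-transplant WT, 291 to 428 in pre-transplant TCF-1 cKO and 4932 to 6623 at day 7. Myeloid and erythroid markers were likewise higher before transplant, at 1010 to 3429 and 2526 to 18469 normalized CPM, than at day 7, at 172 to 634 and 276 to 2374. In bulk samples such as these, fewer cells of a type and less RNA per cell cannot be told apart, and the cell makeup and the transplant cannot be told apart in any comparison of day 7 with pre-transplant.

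**Figure D1:**
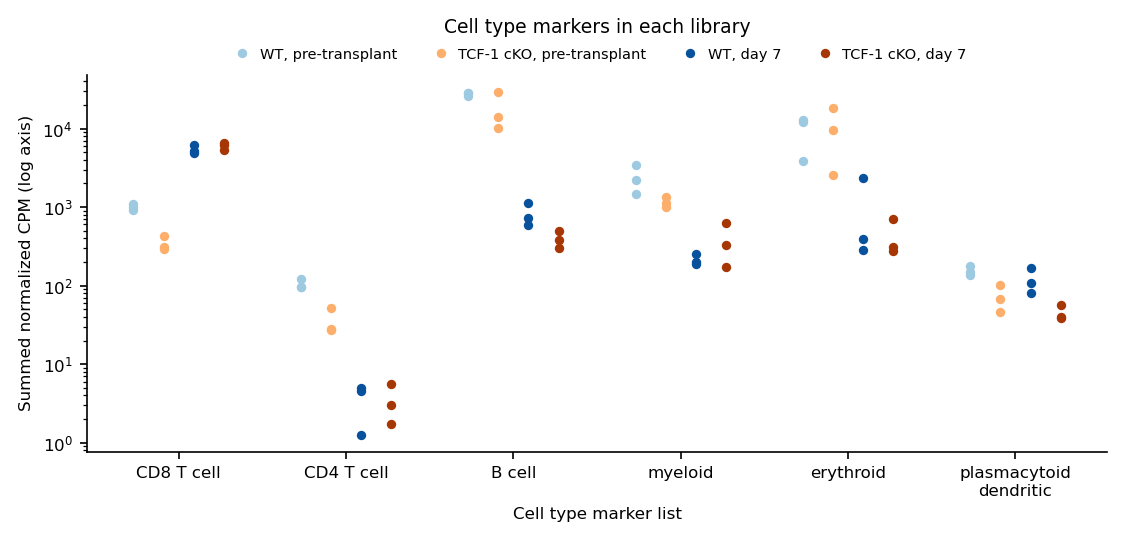
Summed normalized CPM (log axis) of 6 cell type marker lists, where each point is 1 library, coloured by group. B-cell, CD4, myeloid and erythroid markers were higher in the pre-transplant groups and CD8 T-cell markers were higher at day 7.

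Compared per transcript length, as TPM, the members at the top of the order before transplant were Fdps, which makes farnesyl pyrophosphate, Srebf2 and Scd1, a fatty acid desaturase. In pre-transplant WT the levels were 102 ± 51.9 TPM for Fdps, 101 ± 11.7 for Srebf2, 82.4 ± 17.1 for Scd1 and 57.1 ± 1.41 for Acly (SD, n = 3), of which Fdps, Srebf2 and Scd1 did not differ beyond their spread. In pre-transplant TCF-1 cKO the order was led by Scd1 at 87.4 ± 10.8 TPM, Fdps at 68.0 ± 26.0 and Srebf2 at 61.2 ± 16.7 (SD, n = 3), again within their spread. At day 7 the lead passed to Ebp, a sterol isomerase, at 104 ± 37.8 TPM, and Fdps at 74.5 ± 22.9 in WT, and to Fdps at 85.1 ± 14.7 TPM and Ebp at 36.7 ± 21 in TCF-1 cKO (SD, n = 3). The lowest member at day 7 was Abca1 in both genotypes, at 0.127 ± 0.151 TPM in WT and 0.173 ± 0.0677 in TCF-1 cKO, which do not differ beyond their spread.

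**Figure D2:**
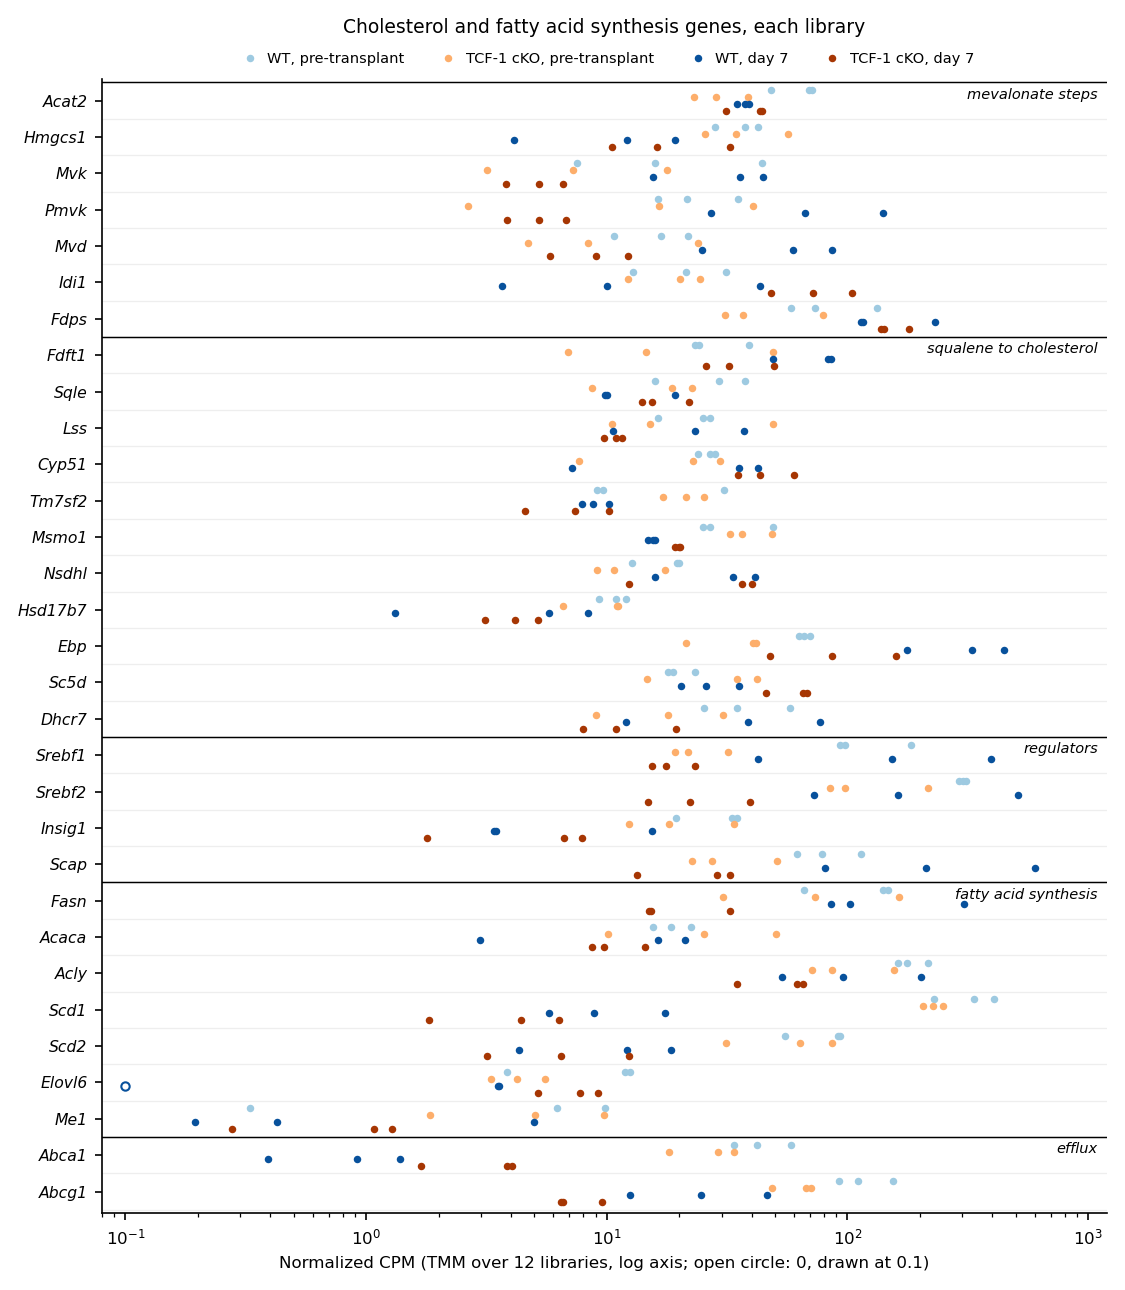
Normalized CPM (log axis) of the 31 members in each of 12 libraries, grouped by role, where each point is 1 library and the open circle is a value of 0 drawn at 0.1. Scd1, Scd2, Abca1 and Abcg1 lay far lower at day 7 in both genotypes, and at day 7 the regulators Srebf1, Srebf2 and Scap lay lower in TCF-1 cKO than in WT.

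Before transplant no member passed an FDR of 0.1 between genotypes. The 4 regulators all had negative log2 fold changes (TCF-1 cKO against WT). Srebf1 was at 98.0, 184 and 93.0 normalized CPM in WT replicates 1 to 3 and at 31.8, 21.7 and 19.2 in TCF-1 cKO, a log2 fold change of -2.18 ± 0.48 (standard error, SE, adjusted p = 0.179). Every TCF-1 cKO library was below every WT library for Srebf1, and the exact permutation test of 3 against 3 (two-sided) gave p = 0.1, the smallest it can give. Srebf2 was at 301, 292 and 311 normalized CPM in WT and at 97.8, 84.6 and 217 in TCF-1 cKO, a log2 fold change of -1.02 ± 0.44 (SE, adjusted p = 0.266). Scap was at 61.6, 114 and 78.3 normalized CPM in WT and at 27.5, 22.5 and 51.2 in TCF-1 cKO, a log2 fold change of -1.16 ± 0.46 (SE, adjusted p = 0.244). For both genes the groups did not overlap in normalized CPM, and TCF-1 cKO replicate 3 lay nearest to WT. Insig1, the sterol-sensing retention protein, had a log2 fold change of -0.28 with overlapping groups.

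By edgeR's quasi-likelihood test, 0 of 31 members were lower and 0 higher before transplant, where 0.0213% and 0.016% of the 18757 genes tested were called. Without adjustment, 3 members had a p-value below 0.05, namely Srebf1, Srebf2 and Scap, and the share of all genes at that level is not given here. Srebf1 was called lower by DESeq2 (log2 fold change -2.28, adjusted p = 0.00196) and without the filter on low counts (-2.52, adjusted p = 0.00515), and limma-voom called 0. Without TCF-1 cKO pre-transplant replicate 3, edgeR called 4 members lower, which were Srebf1, Srebf2, Scap and Acly (adjusted p = 0.0295, 0.0199, 0.0511 and 0.0674). The share of all genes called in that fit is not given here. The 5 CD8 T-cell markers had a median log2 fold change of -1.45 in the same comparison, and 5 of 5 had an unadjusted p-value below 0.05. Myeloid markers summed to 1465 to 3429 normalized CPM in WT and 1010 to 1343 in TCF-1 cKO, with 0 of 8 called. Plasmacytoid dendritic markers summed to 137 to 179 and 46.5 to 102, with 0 of 3 called and Siglech at a log2 fold change of -3.34 (adjusted p = 0.148). With the GC content and length offset 1 of these 3, Siglech, was called lower (-3.79, adjusted p = 0.0656). So was 1 of the 5 CD8 T-cell markers, Cd8a (-2.65, adjusted p = 0.0886). The share of all genes called before transplant with the offset is not given here. The part of these markers in the values of the regulators was not tested.

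In normalized CPM the TCF-1 cKO and WT libraries did not overlap for 8 members before transplant, all lower in TCF-1 cKO (background 14.1% lower and 16.2% higher of all genes tested). In TPM the groups of Scap overlapped, at 18.1, 41.6 and 25.3 in WT and 11.9, 27.8 and 26.0 in TCF-1 cKO. Those of Abca1 and Abcg1 also overlapped in TPM. Beside the 3 regulators, the members without overlap in normalized CPM included the exporters Abca1 and Abcg1. The rest were Acat2, which makes acetoacetyl-CoA, Ebp, and Acly, which makes cytosolic acetyl-CoA. Acly was at 162 to 216 normalized CPM in WT and 71.7 to 156 in TCF-1 cKO (log2 fold change -0.65), Abca1 at 33.9 to 58.1 and 18.2 to 33.7 (-0.54), and Abcg1 at 92.3 to 155 and 48.8 to 70.4 (-0.75). Acat2 ran from 48.0 to 71.1 normalized CPM in WT and from 23.1 to 38.7 in TCF-1 cKO. The groups of the remaining enzymes overlapped, and some of their differences were as large as those above, such as -1.12 for Mvk. In order of the pathway, the log2 fold change was 0.30 for Hmgcs1, 0.01 for Idi1, -0.50 for Sqle, -0.17 for Cyp51 and -0.86 for Dhcr7, the enzyme of the last step. In fatty acid synthesis it was 0.84 for Acaca, -0.25 for Fasn, -0.31 for Scd1, -0.18 for Scd2 and -0.91 for the elongase Elovl6. The sign was negative for 22 of 31 members, and the median over the members was -0.28, beside 0.05 over all genes tested. After the GC content and length offset these medians were -0.64 and -0.30, and under library totals they were 0.05 and 0.39.

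At day 7 the genotypes differed for 8 members, all lower in TCF-1 cKO. They included 3 consecutive enzymes of the mevalonate branch (Mvk, Pmvk and Mvd), 3 regulators (Srebf1, Srebf2 and Scap), Fasn and the exporter Abcg1. The background was 15.4% of the 16026 genes tested called lower and 2.51% called higher, and 0 members were called higher.

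Scap, the escort protein of both SREBPs (chromosome 9, 110333288 to 110384950), was at 213, 600.2 and 80.6 normalized CPM in WT replicates 1 to 3 and at 32.4, 28.7 and 13.4 in TCF-1 cKO. It was 13.0-fold lower in TCF-1 cKO (log2 fold change -3.70, standard error 0.83, adjusted p = 0.0448). The genotypes did not overlap, and the 3 WT libraries spread over a wider range than the TCF-1 cKO libraries. Srebf1 (chromosome 11, 60199089 to 60222581) was at 153, 395 and 42.7 normalized CPM in WT and at 23.2, 15.4 and 17.7 in TCF-1 cKO, a log2 fold change of -3.53 ± 0.82 (SE, adjusted p = 0.0448). Srebf2 (chromosome 15, 82147181 to 82205379) was at 162, 510.1 and 72.8 normalized CPM in WT and at 39.2, 14.8 and 22.3 in TCF-1 cKO, a log2 fold change of -3.42 ± 0.82 (SE, adjusted p = 0.0453). In both genes WT replicate 2 was the highest and WT replicate 3 the lowest of the WT libraries. Without WT replicate 2 the log2 fold change was -2.68 for Scap, -2.53 for Srebf1 and -2.33 for Srebf2. The fourth regulator, Insig1, was at 15.5, 3.40 and 3.45 normalized CPM in WT and at 1.80, 6.67 and 7.91 in TCF-1 cKO, with overlapping groups and a log2 fold change of -0.55.

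In the mevalonate branch, Pmvk was at 66.8, 140.3 and 27.2 normalized CPM in WT and at 6.77, 3.84 and 5.24 in TCF-1 cKO, 16.1-fold lower (log2 fold change -4.01, standard error 0.73, adjusted p = 0.0448). Mvk, which phosphorylates mevalonate first, was at 35.7, 44.8 and 15.6 normalized CPM in WT and at 3.80, 6.60 and 5.24 in TCF-1 cKO (log2 fold change -2.72 ± 0.60, SE). Mvd, which follows Pmvk, was at 59.7, 86.0 and 24.9 normalized CPM in WT and at 12.3, 5.80 and 8.99 in TCF-1 cKO (log2 fold change -2.78 ± 0.63, SE). The adjusted p was 0.0448 for both. None of the 3 genes had overlapping groups, and in each the same WT library, replicate 3, lay nearest to TCF-1 cKO. Without WT replicate 2 the log2 fold change of Pmvk was -3.28. Idi1, the next enzyme in the branch, was at 10.1, 3.68 and 43.3 normalized CPM in WT and at 72.0, 48.4 and 104 in TCF-1 cKO, a log2 fold change of 2.0 ± 0.81 (SE, adjusted p = 0.149). Its groups did not overlap, with all TCF-1 cKO libraries above WT, but it did not pass the test. The first enzymes of the branch, Acat2 and Hmgcs1, had log2 fold changes of 0.02 and 0.66 with overlapping groups, and Fdps was at 114 to 231 normalized CPM in WT and 138 to 180.3 in TCF-1 cKO.

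None of the 11 enzymes from squalene to cholesterol was called at day 7. Ebp came nearest, at 331, 449 and 177 normalized CPM in WT and 86.7, 159 and 47.6 in TCF-1 cKO (log2 fold change -1.79, standard error 0.62, adjusted p = 0.104), without overlap. Sc5d, which inserts a double bond into the sterol ring, was higher in all 3 TCF-1 cKO libraries, at 46.0 to 68.0 normalized CPM against 20.5 to 35.4 in WT, and was not called (log2 fold change 1.05, adjusted p = 0.17). The groups overlapped for Sqle, Cyp51 and Dhcr7, whose log2 fold changes were 0.32, 0.68 and -1.87.

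Among the fatty acid genes, Fasn (chromosome 11, 120805846 to 120824547) was at 102, 304 and 85.4 normalized CPM in WT and at 32.6, 15.3 and 15.0 in TCF-1 cKO, 8.48-fold lower (log2 fold change -3.08, standard error 0.69, adjusted p = 0.0448). Acaca, the enzyme just before it, was at 2.98, 21.1 and 16.3 normalized CPM in WT and at 14.4, 9.71 and 8.68 in TCF-1 cKO, so its groups overlapped (log2 fold change -0.35). Acly, Scd1 and Scd2 had log2 fold changes of -1.21, -1.47 and -0.76 with overlapping groups, and Elovl6 one of 1.5, with 0 counts in WT replicate 3. Of the exporters, Abcg1 fell from 24.6, 46.6 and 12.5 normalized CPM in WT to 6.56, 9.57 and 6.47 in TCF-1 cKO (log2 fold change -1.99, standard error 0.62, adjusted p = 0.0793). Abca1 rested on 8, 13 and 18 counts in WT, or 0.391, 0.92 and 1.38 normalized CPM, and was at 3.87, 1.68 and 4.06 in TCF-1 cKO (log2 fold change 1.79, adjusted p = 0.152). In normalized CPM the groups of the exporters did not overlap, with Abcg1 lower and Abca1 higher in TCF-1 cKO. In TPM the groups of both overlapped. There WT replicate 3 was at 0.300 for Abca1, above every TCF-1 cKO library, and at 2.62 for Abcg1, below TCF-1 cKO replicate 2 at 2.66. The call of Abcg1 was lost with library totals, limma-voom and the replicate block (adjusted p = 0.155, 0.107 and 0.11). With WT replicate 2 left out, Fasn was at -2.25 and Abcg1 at -1.40 on the log2 scale.

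The order of the members by their day 7 difference followed the G and C content of their transcripts. The 8 members called lower had a median GC content of 58.2% (range 53.3 to 59.8), and the 23 not called had a median of 49.0% (range 40.8 to 56.7). Across the 31 members, which share the same 6 libraries, Spearman's rho between GC content and log2 fold change was -0.82, and across all 16026 genes tested it was -0.55. The trend was also present between libraries of 1 group. In the ratio of WT replicate 2 to WT replicate 3 at day 7, rho was 0.70 over the members and 0.38 over all genes. For WT replicate 1 over 3 it was 0.43 and 0.31, and for replicate 2 over 1 it was 0.58 and 0.22. Among the day 7 TCF-1 cKO libraries it lay between -0.05 and 0.35 over the members. Within the pre-transplant groups it lay between -0.21 and 0.56. The sign of each value depends on which library of the pair is the divisor.

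When each library's trend on GC content and length was removed as an offset, rho over the members was -0.32 and over all genes -0.03. The count fell to 2 members, both lower in TCF-1 cKO, beside 4.79% of all genes called lower and 1.24% called higher. These were Pmvk (log2 fold change -2.33, standard error 0.43, adjusted p = 0.0914) and Scap (-2.14, standard error 0.53, adjusted p = 0.0914). With the offset the log2 fold change was -1.12 for Srebf1, -1.30 for Srebf2, -1.08 for Fasn, -1.23 for Abcg1, -0.70 for Mvk and -0.71 for Mvd, none of which passed. Hmgcs1 and Sqle changed to negative values and Scd1 to a positive value, as listed with the other changes of sign. The median over the members was -0.76 with and without the offset, beside -0.12 and 0.15 over all genes tested.

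**Figure D3:**
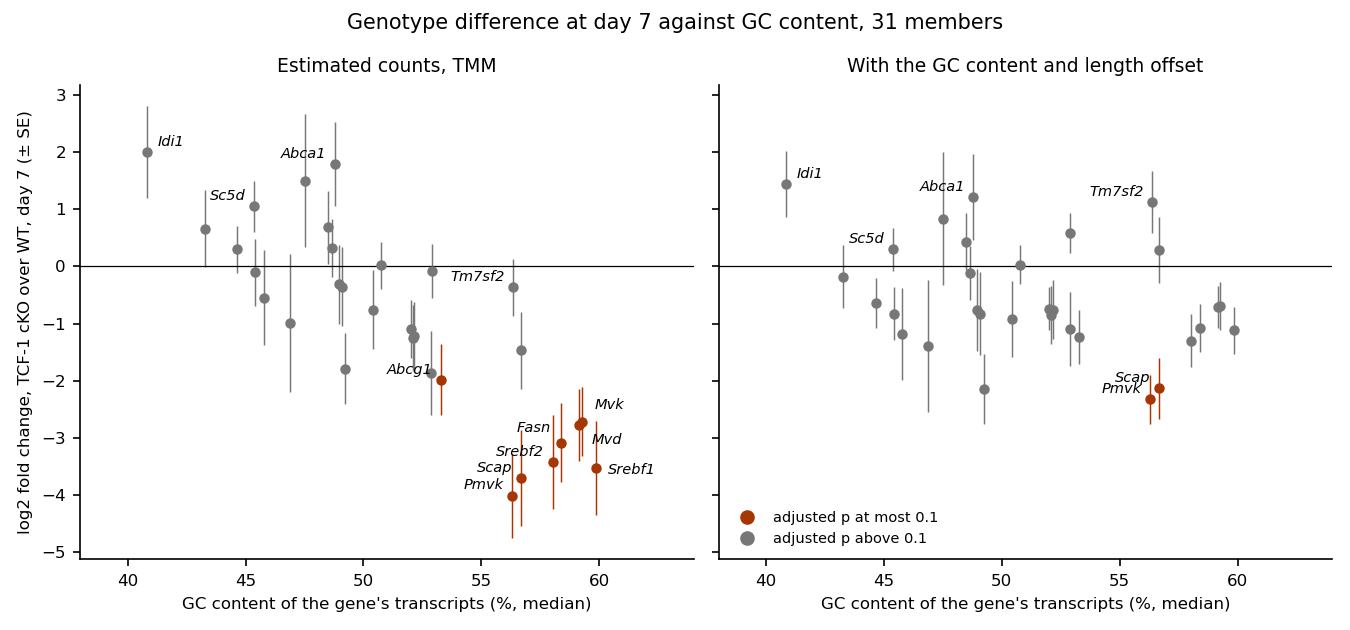
Log2 fold change of TCF-1 cKO over WT at day 7 (± standard error) of each of the 31 members against the median GC content of its transcripts in percent, from the counts (left) and with the GC content and length offset (right), with members past an FDR of 0.1 in red. The 8 members called on the left sit at GC contents of 53.3% to 59.8%, and Pmvk and Scap are the 2 called on the right.

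The day 7 calls depended on the libraries entered. With any of TCF-1 cKO replicates 1, 2 and 3 or WT replicates 1 and 2 left out, 0 members were called, and the adjusted p-values of the 8 members then lay between 0.109 and 0.258. The differences remained negative, and over the 6 fits with 1 library left out the log2 fold change was -4.49 to -3.28 for Pmvk, -4.22 to -2.68 for Scap, -4.06 to -2.53 for Srebf1, -3.99 to -2.33 for Srebf2, -3.65 to -2.25 for Fasn, -3.21 to -2.36 for Mvd, -3.13 to -2.41 for Mvk and -2.42 to -1.40 for Abcg1. Without the library labelled WT replicate 3, 13 members were called lower and 1, Idi1, higher (log2 fold change 3.24, adjusted p = 0.0104). The share of all genes called in the fits with 1 library left out is not given here. In 9 members the groups did not overlap with TCF-1 cKO lower (background 19.7%), and in 5 with TCF-1 cKO higher (background 19.1%). The 5 were Idi1, Msmo1, Sc5d, Elovl6 and Abca1. In the same libraries the T-cell receptor subunits Cd3e and Cd3g differed in opposite directions. Cd3e was at 780.4, 1585 and 278 normalized CPM in WT and 128 to 153 in TCF-1 cKO, and Cd3g at 768, 295 and 1544 in WT and 1871 to 2951 in TCF-1 cKO. B-cell markers summed to 591 to 1139 normalized CPM in day 7 WT and 303 to 502 in TCF-1 cKO, and myeloid markers to 190 to 249 and 172 to 634, with 0 of 6 B-cell markers and 2 of 8 myeloid markers called, the latter higher. The 3 plasmacytoid dendritic markers summed to 81.3 to 165 normalized CPM in WT and 38.2 to 56.9 in TCF-1 cKO, where Bst2 was called lower (log2 fold change -1.96, adjusted p = 0.0718). Of the mean sums of 118 and 44.8 normalized CPM, Bst2 held 108 and 29.4. The other markers of this list, Siglech and Ccr9, had log2 fold changes of 0.35 and 0.69 without a call. With the GC content and length offset Bst2 was at -0.29 (adjusted p = 0.705). The 6 erythroid markers summed to 285 to 2374 and 276 to 696, where Hba-a2 was called lower (-3.18, adjusted p = 0.093). No marker of these lists was at 0 in all libraries of a group. The part of these markers in the values of the members was not tested.

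Between pre-transplant and day 7 the desaturases and the exporters fell in both genotypes. Scd1, which makes oleate from stearate (chromosome 19, 44394455 to 44407879), was at 408, 229 and 335 normalized CPM in pre-transplant WT and at 8.89, 17.4 and 5.75 at day 7, 30.1-fold lower (log2 fold change -4.91, standard error 0.64, adjusted p = 0.00168). In TCF-1 cKO it fell from 249, 207 and 228 normalized CPM to 4.42, 1.82 and 6.32, 39.0-fold lower (log2 fold change -5.29, standard error 0.55, adjusted p = 0.00019). Every day 7 library was far below every pre-transplant library. Scd2, its neighbour on chromosome 19, fell from 55.2 to 93.6 normalized CPM to 4.32 to 18.6 in WT (log2 fold change -2.76, adjusted p = 0.0215) and from 31.4 to 86.6 to 3.17 to 12.4 in TCF-1 cKO (-2.54, adjusted p = 0.0124). Abca1 (chromosome 4, 53030787 to 53159895) fell from 33.9 to 58.1 normalized CPM to 0.391 to 1.38 in WT (log2 fold change -5.66, standard error 0.76, adjusted p = 0.00189). In TCF-1 cKO it fell from 18.2 to 33.7 to 1.68 to 4.06 (-2.60, standard error 0.54, adjusted p = 0.00634). Abcg1 fell by 2.08 on the log2 scale in WT (adjusted p = 0.0463) and by 2.59 in TCF-1 cKO (adjusted p = 0.00139).

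Ebp rose in both genotypes, from 62.8, 66.3 and 70.2 normalized CPM to 331, 449 and 177 in WT (log2 fold change 2.27, adjusted p = 0.0178) and from 40.4, 21.4 and 41.7 to 86.7, 159 and 47.6 in TCF-1 cKO (1.95, adjusted p = 0.019). In WT the only other member called higher was Mvd, from 10.7, 21.8 and 16.8 normalized CPM to 59.7, 86.0 and 24.9 (log2 fold change 1.80, adjusted p = 0.0903). In TCF-1 cKO 5 further sterol enzymes were called higher. Idi1 went from 24.4, 20.1 and 12.3 normalized CPM to 72.0, 48.4 and 104 (log2 fold change 2.46, adjusted p = 0.0032), and Fdps from 36.9, 30.9 and 79.4 to 142, 180.3 and 138 (2.08, adjusted p = 0.00822). The others were the lanosterol demethylase Cyp51 (1.69), Nsdhl (1.74) and Sc5d (1.46). In normalized CPM the groups did not overlap for these genes, except for Nsdhl. There TCF-1 cKO day 7 replicate 2 lay among the pre-transplant values at 12.4 normalized CPM. In TPM the stages overlapped for each of these genes, including Ebp in both genotypes and Mvd in WT. Mean TPM in TCF-1 cKO went from 34.8 to 36.7 for Ebp, 11.9 to 15.0 for Idi1 and 68.0 to 85.1 for Fdps. It went from 9.49 to 7.06 for Cyp51, 10.1 to 8.47 for Nsdhl and 23.0 to 22.3 for Sc5d. Also in TCF-1 cKO, Srebf2 fell by 1.92, Fasn by 1.63 and Me1, an NADPH source, by 2.20 on the log2 scale (adjusted p = 0.0266, 0.0866 and 0.0818).

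In all, 4 members were lower and 2 higher at day 7 in WT, where 10.3% and 9.7% of 16790 genes were called. In TCF-1 cKO 7 were lower and 6 higher, where 16.8% and 19.7% of 18535 genes were called. The 4 lower members of WT were also called in TCF-1 cKO, and 1 higher member was shared. With the GC content and length offset, 4 members were lower and 4 higher in WT (background 9.48% and 13.6%), and 9 were lower and 7 higher in TCF-1 cKO (background 17.6% and 20.7%). In TCF-1 cKO the call of Cyp51 was lost with the offset (log2 fold change 1.03, adjusted p = 0.130). Calls added there included Insig1 (-1.82, adjusted p = 0.0792) and Elovl6 (1.32, adjusted p = 0.0816). Groups did not overlap for 10 members lower and 3 higher in WT (background 20.2% and 13%) and for 11 lower and 5 higher in TCF-1 cKO (background 33.3% and 18.4%). The median log2 fold change of the members was -0.27 in WT and -0.49 in TCF-1 cKO, beside -0.30 and -0.29 over all genes. Each of these comparisons shares its libraries with a genotype comparison above. In the same comparisons 5 of 5 CD8 T-cell markers were called higher and 6 of 6 B-cell markers lower in both genotypes, with 6 and 3 of 8 myeloid and 6 and 5 of 6 erythroid markers lower in WT and TCF-1 cKO.

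**Figure D4:**
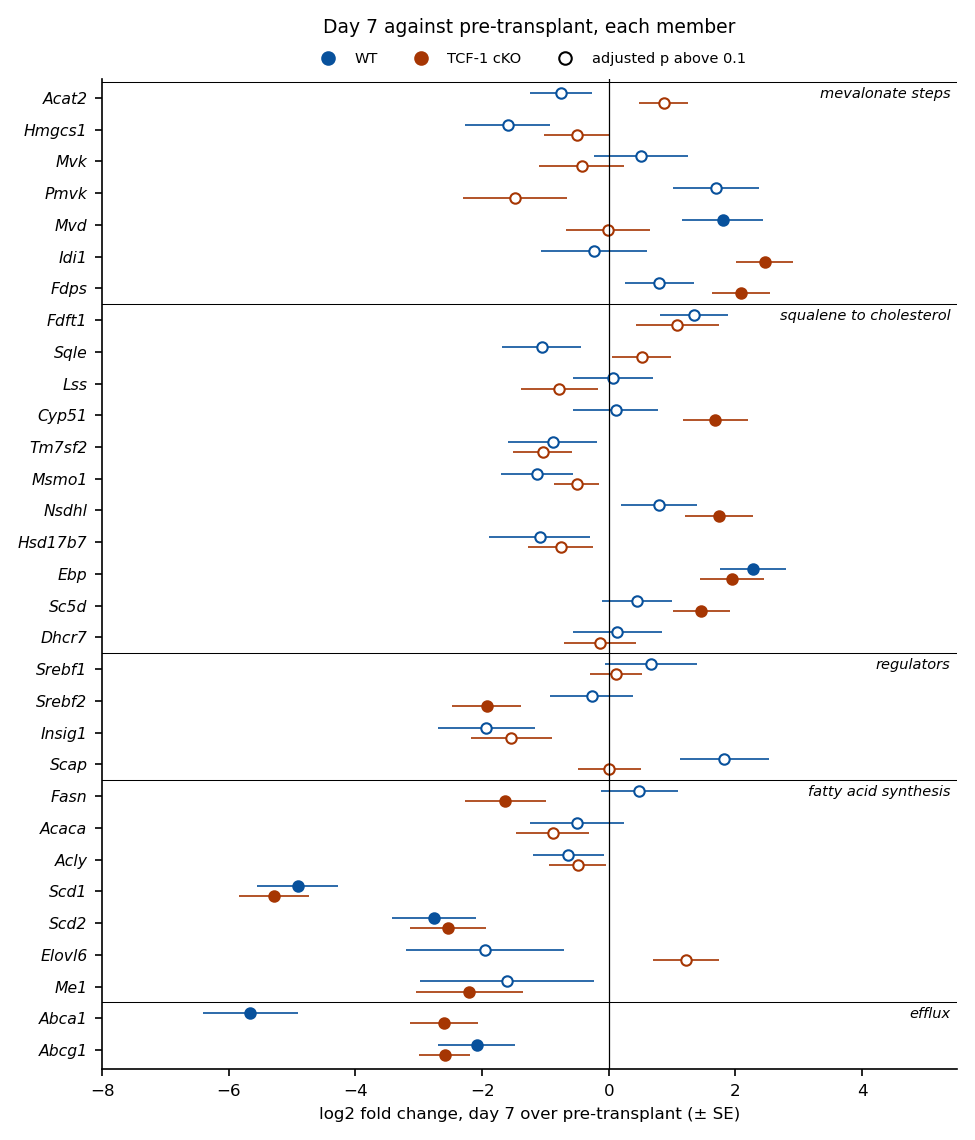
Log2 fold change of day 7 over pre-transplant (± standard error) of each member in WT (blue) and TCF-1 cKO (red), where filled points passed an FDR of 0.1. Scd1, Scd2, Abca1 and Abcg1 fell in both genotypes and Ebp rose in both, with log2 fold changes of 2.27 and 1.95.

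Some members not called in WT between stages still had groups that did not overlap. These were Insig1, Hmgcs1, Elovl6, Acat2, Msmo1 and Hsd17b7, all lower at day 7, and Fdft1, which was higher. Insig1, Hmgcs1, Scap, Pmvk and Fdft1 had an unadjusted p-value below 0.05 (0.0296, 0.0377, 0.0256, 0.0309 and 0.0299 in edgeR's test). Pmvk and Fdft1 were higher at day 7 (log2 fold change 1.69 and 1.34). The share of all genes at that level is not given here. The log2 fold changes of the members named in every comparison were 0.66 for Srebf1, -0.27 for Srebf2, -1.93 for Insig1 and 1.83 for Scap among the regulators. Among the sterol enzymes they were -1.60 for Hmgcs1, -0.23 for Idi1, -1.06 for Sqle, 0.11 for Cyp51 and 0.14 for Dhcr7. The fatty acid genes gave -0.64 for Acly, -0.50 for Acaca, 0.48 for Fasn and -1.95 for Elovl6. In TCF-1 cKO the uncalled values were 0.11 for Srebf1, -1.54 for Insig1, 0.01 for Scap, -0.51 for Hmgcs1, 0.52 for Sqle, -0.14 for Dhcr7, -0.49 for Acly, -0.89 for Acaca and 1.23 for Elovl6, of which Insig1 and Acly did not overlap between stages.

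Of the called members, Scd1, Scd2 and Abca1 passed in both genotypes under each alternative that was run. In WT the call of Mvd was lost without any of day 7 replicates 1 and 2 or pre-transplant replicates 1, 2 and 3 (adjusted p = 0.141 to 0.277), where its log2 fold change was 1.54 to 2.06, and also with limma-voom, library totals and the replicate block (0.107, 0.425 and 0.117). That of Abcg1 was lost without day 7 replicate 1 or pre-transplant replicates 1 or 3 (0.123 to 0.23), and that of Ebp without pre-transplant replicate 3 (0.103). In TCF-1 cKO the calls of Fasn and Me1 were lost without any of 4 and of 5 libraries, TCF-1 cKO day 7 replicates 2 and 3 and pre-transplant replicates 1 and 3 among them (0.126 to 0.377). Both were also lost with limma-voom (0.11 and 0.112), in 1 fit over all libraries (0.113 and 0.261) and with the replicate block (0.156 and 0.217). Without pre-transplant replicate 3 the log2 fold change in TCF-1 cKO was -0.69 for Fasn, -1.22 for Srebf2 and 2.82 for Fdps, without pre-transplant replicate 1 it was -1.43 for Me1, and without day 7 replicate 1 it was -3.15 for Scd2. In WT it was -2.17 for Scd2 without day 7 replicate 2 and -4.98 for Abca1 without day 7 replicate 1. Without day 7 replicate 2, the library with a CD4 label, 4 members were lower and 5 higher, and the calls of Srebf2 and Cyp51 were also lost (adjusted p = 0.106 and 0.101). Those of Nsdhl and Sc5d were lost without day 7 replicate 1 (0.119 and 0.115), and those of Nsdhl and Srebf2 without day 7 replicate 3 (0.114 and 0.105). Without the library labelled WT day 7 replicate 3, 4 members were lower and 5 higher in WT.

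These stage comparisons depend on the scaling more than the genotype comparisons do. The day 7 libraries had TMM factors of 0.503 to 0.809 and the pre-transplant libraries 1.08 to 1.93. With library totals in place of TMM, the median of all genes moved from -0.30 to -1.25 in WT and from -0.29 to -1.89 in TCF-1 cKO, 11 members were lower and 1 higher in WT, and 22 were lower and 0 higher in TCF-1 cKO. Under that scaling Ebp was the member still called higher in WT. In TCF-1 cKO the log2 fold changes of Idi1, Fdps, Ebp and Nsdhl were 0.81, 0.59, 0.41 and 0.09 without a call. Those of Cyp51 and Sc5d were negative.

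An interaction term fitted to the 12 libraries compared the genotype difference at day 7 with that before transplant. None of the 31 members passed (background 0.00465% of 21526 genes, in either direction), 8 had an unadjusted p-value below 0.05 and the smallest adjusted p was 0.233. That background is for the FDR of 0.1, and the share of all genes with an unadjusted p-value below 0.05 is not given here. DESeq2 called 3 members, limma-voom 0, and without the library labelled WT day 7 replicate 3 edgeR called 4. The lower day 7 calls of the SREBP genes are thus not shown to differ from the pre-transplant values.

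In the same fits 4 other lists of lipid genes were counted. Before transplant, none of their tested genes was called. At day 7, genes called lower in TCF-1 cKO were 4 of 16 other sterol and isoprenoid genes, 4 of 7 genes of the LXR arm, 6 of 20 other fatty acid synthesis and desaturation genes and 3 of 20 fatty acid oxidation genes, with 0 called higher in each list, beside 15.4% of all genes called lower. The count for fatty acid oxidation is thus at the background. With the offset these counts were 1, 2, 3 and 1, beside 4.79% of all genes. The 5 with the smallest p-values were Nr1h2, which encodes LXR-beta (log2 fold change -3.73), Acads, a short-chain acyl-CoA dehydrogenase (-3.77), Tecr, an enoyl-CoA reductase (-3.70), the elongase Elovl1 (-2.90) and Aacs, which activates acetoacetate (-4.15). Nr1h2 was at 299.8, 514 and 73.9 normalized CPM in WT and at 28.7, 26.4 and 17.9 in TCF-1 cKO, so that WT replicate 3 again lay nearest to TCF-1 cKO.

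Between stages, 4 of 20 fatty acid oxidation genes were called higher at day 7 in WT and 9 of 20 in TCF-1 cKO, and 0 lower in both. Over all genes 9.7% were called higher and 10.3% lower in WT, and 19.7% and 16.8% in TCF-1 cKO, which is the background for each count in this comparison. In TCF-1 cKO Acadl, a long-chain acyl-CoA dehydrogenase, went from 25.1 to 38.6 normalized CPM to 177 to 237 (log2 fold change 3.21, adjusted p = 0.000336). In the LXR arm 2 of 7 genes were lower and 1 higher in WT, and 2 of 8 were lower and 0 higher in TCF-1 cKO. Mylip, an LXR target that degrades lipoprotein receptors, went from 44.7 to 67.7 normalized CPM to 2.61 to 11.0 in WT (log2 fold change -2.84) and from 24.8 to 50.5 to 0.873 to 1.73 in TCF-1 cKO (-4.23). The 16 other sterol and isoprenoid genes gave 0 lower and 1 higher in WT and 3 lower and 7 higher in TCF-1 cKO. The 21 other fatty acid genes gave 1 lower and 1 higher in WT and 4 lower and 6 higher in TCF-1 cKO.

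Some members share sequence with other genes, so that pseudoalignment could have split their reads. A stretch of at least 200 bases with at least 95% identity to a transcript of another gene was found for 10 of 31 members. For Fdps, 5 other genes matched, 3 of them over more than 85% of the transcript, for Acaca Gm5182 matched over 67.8%, for Acat2 Acat3 matched over 65.6% and for Me1 Gm7049 matched over 52.2%. Idi1 shared 684 identical bases with Gm13502. Levels of these members are uncertain to that extent. Antisense overlaps, such as that of Scap with 5830462I19Rik over 223 bases, could not be separated, since the library kit does not mark strand.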

How the data were processed

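RNA from FACS-sorted cells was made into cDNA with the SMART-Seq HT kit and sequenced in 12 libraries, grouped by sample title into 4 groups of 3. The authors quantified transcripts by pseudoalignment and deposited an estimated count per transcript, unscaled for depth or length, and a TPM value, which Kallisto scales for effective length and depth. The submitters' processing notes name kallisto 0.46.2, limma and mm9, and the transcript release is not given in the sources used here. Transcripts were joined to GENCODE M21 (GRCm38), which may differ from that release, and 99.5 to 99.7% of the counts found a gene. Gene sums were rounded to whole numbers.

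Each comparison was fitted over its own 6 libraries with edgeR 4.0.16 (TMM, filterByExpr, quasi-likelihood test, Benjamini-Hochberg adjustment over all genes tested, FDR threshold 0.1), and the interaction over all 12. Normalized CPM are counts scaled by the TMM-adjusted library size. The standard error of a log2 fold change was taken as its size divided by the square root of F. A second fit removed each library's trend on transcript GC content and length (loess, span 0.4, degree 2) as an offset. Alternatives were DESeq2 1.42.0, limma-voom (limma 3.58.1), DESeq2 size factors, library totals, no filter, 1 fit over the 12 libraries, a replicate block and leaving out each library. R 4.3.3, Python 3.11.15, pandas 2.3.3, matplotlib 3.10.9 and blastn 2.17.0 were used, and the fits were tested on simulated data. Floors cover counting error only, since reads carry no molecular identifiers.

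The members and gene lists were chosen with earlier results of these data known. Values are given in every comparison for 17 members that stand for the steps of the pathways, and for members past the FDR threshold, while genes of other lists are named where they passed it, at most 5 per comparison by smallest p. The library of TCF-1 cKO day 7 replicate 2 was kept as titled.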

Additional observations from a re-analysis of the deposited data

How the results depend on the processing

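Limits: each group holds 3 libraries, the pre-transplant TCF-1 cKO libraries are the shallowest, and the number of day 7 genotype calls changed with the GC content and length offset and with each library left out. Where a call was lost, the cause was not tested. The median of all genes under TMM, DESeq2 size factors, library totals and the GC content and length offset was 0.05, -0.02, 0.39 and -0.30 before transplant and 0.15, 0.07, 0.54 and -0.12 at day 7. Between stages it was -0.30, -0.10, -1.25 and 0.09 in WT and -0.29, -0.24, -1.89 and -0.13 in TCF-1 cKO. Against 0 members called before transplant, DESeq2 called 1, the fit with no filter 1 and leave-one-out fits 0 to 4, the 4 without TCF-1 cKO replicate 3. Against 8 at day 7, DESeq2 called 15, the GC content and length offset 2, and leave-one-out fits 0 to 14, the 14 without WT replicate 3. Against 6 between stages in WT, DESeq2 called 11, library totals 12 and leave-one-out fits 3 to 9, the 3 without pre-transplant replicate 3. Against 13 in TCF-1 cKO, library totals called 22 and leave-one-out fits 9 to 14. For the interaction, against 0, DESeq2 called 3, no filter 1 and leave-one-out fits 0 to 4. Shares of all genes called are given for the reported fits and for the GC content and length offset at day 7 and between stages only. The other counts thus have no background beside them.

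The labels do not say whether the replicate numbers pair the samples, and the correlation of same-numbered deviations was weak (-0.11 to 0.12). At day 7 every TCF-1 cKO library correlated best with the WT library of its own number (0.018 to 0.070). With 3 libraries per group these correlations cannot decide whether the numbers mark a pairing. With the replicate block, 0 members were called before transplant, 8 lower and 1 higher at day 7, 5 lower and 1 higher between stages in WT, 5 lower and 6 higher in TCF-1 cKO, and 0 for the interaction. With the replicate block and the offset together, 0 were called at day 7.

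The following log2 fold changes had another sign than the reported value. Before transplant, Idi1 was at -0.072 with DESeq2 size factors and DESeq2, -0.46 with the offset, -0.056 with limma-voom, -0.37 with no filter, -0.25 in 1 fit over all libraries and -0.43 with block and offset. Hmgcs1 was at -0.37 with the offset, -0.038 with no filter and -0.46 with block and offset, and Scd1 at 0.022 with the offset, 0.052 with library totals and 0.051 with block and offset. With library totals Insig1 was at 0.047, Cyp51 at 0.23, Fasn at 0.054 and Scd2 at 0.22. At day 7 the offset gave -0.18 for Hmgcs1, -0.12 for Sqle and 0.28 for Scd1, block and offset gave -0.14, -0.072 and 0.13, and Acaca was at 0.11 with library totals and 0.044 with limma-voom.

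Between stages in WT, Srebf2 was at 0.000222 with DESeq2 size factors and 0.000254 with DESeq2. The offset gave -0.12 for Srebf1, -0.11 for Dhcr7, 0.000081 for Acaca and -0.16 for Fasn. Library totals gave -0.52 for Srebf1, -0.75 for Cyp51, -0.96 for Dhcr7 and -0.58 for Fasn. Cyp51 and Dhcr7 were at -0.23 and -0.16 with limma-voom and at -0.21 and -0.20 with the block, and Idi1 at 0.085 in 1 fit over all libraries. Block and offset gave -0.22 for Srebf1, -0.35 for Dhcr7 and -0.093 for Fasn. In TCF-1 cKO library totals gave -1.53 for Srebf1, -1.51 for Scap, -1.14 for Sqle, -0.0054 for Cyp51, -0.38 for Elovl6 and -0.23 for Sc5d, and Scap was at -0.030 with limma-voom and -0.022 with no filter.

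With 1 library left out, ranges that crossed 0 before transplant were -0.28 to 0.32 for Idi1, -0.13 to 0.47 for Hmgcs1, -1.10 to 0.11 for Fasn and -0.64 to 0.087 for Cyp51. At day 7 they were -0.97 to 0.53 for Insig1 and -0.95 to 0.21 for Acaca. Between stages in WT they were -1.17 to 0.40 for Srebf2, -1.49 to 0.55 for Idi1, -0.71 to 0.28 for Acaca, -0.19 to 1.36 for Srebf1, -0.45 to 0.80 for Dhcr7, -0.11 to 1.04 for Fasn and -0.15 to 0.79 for Cyp51. In TCF-1 cKO they were -0.079 to 0.42 for Srebf1, -0.25 to 0.62 for Scap, -0.52 to 0.54 for Dhcr7 and -0.66 to 0.079 for Acly. Of the values named here, those of Cyp51 and Sc5d between stages in TCF-1 cKO were called in the reported fit, and the others were not.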
